A study of Rattus norvegicus with 62 samples.

Results

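The genes described here encode the enzymes and regulators of cholesterol synthesis and of fatty acid synthesis, measured in rat liver during a 2-stage protocol of chemical liver carcinogenesis. They were chosen by name: 31 genes were listed, 22 of the sterol branch and 9 of the fatty acid branch, and each was read from its 1 probe set with a single gene symbol and the highest mean. Of these, 30 were measured, 21 of the sterol branch and 9 of the fatty acid branch, out of 14217 genes with such a probe set; Hmgcs1, which encodes the cytosolic synthase upstream of mevalonate, was not analysed here. All 30 reached a signal of 100 on all 62 arrays, so none of them was left out by the filter on low signals, which kept 10491 genes at 5w and 10546 at 10w.

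Liver RNA came from 31 male Crj:CD(SD)IGS rats, each sampled at partial hepatectomy (5w) and again at the end (10w), which gives 62 arrays in 14 groups of 4 or 5. An initiator, a compound meant to start carcinogenesis, was given first for 1 or 2 weeks, and 2 weeks without it followed. The promoter phenobarbital (PB), a drug that enlarges the liver and induces its drug-metabolising enzymes, was then given at 500 ppm in the drinking water, so that PB had run for 1 week at 5w and for 6 weeks at 10w. The controls were MC/water, which had the vehicle methylcellulose (MC) and plain water (n = 4), and MC/PB, which had the vehicle and then PB (n = 4). The 5 initiated groups all received PB: diethylnitrosamine, an alkylating liver carcinogen, at 3 mg/kg (DEN3/PB, n = 5) and 30 mg/kg (DEN30/PB, n = 4), thioacetamide, a liver toxicant, at 45 mg/kg (TAA/PB, n = 5), methapyrilene, an antihistamine that is carcinogenic in rat liver, at 100 mg/kg (MP/PB, n = 5), and acetaminophen, an analgesic that injures the liver at high dose, at 1000 mg/kg (APAP/PB, n = 4). No group had an initiator without PB, and all 10w livers had regrown after hepatectomy, the controls included. Ages are not stated in the labels.

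Cholesterol is built in the endoplasmic reticulum from acetyl units by way of mevalonate, the isoprenoid farnesyl diphosphate, squalene and a series of sterol ring intermediates. Fatty acids are built from citrate-derived acetyl-CoA by carboxylation and the multi-step fatty acid synthase, and are then elongated and desaturated. In liver the transcription factor SREBP-2, the product of Srebf2, mainly drives the sterol genes, and SREBP-1c, from Srebf1, mainly drives the fatty acid genes. Both are held in the endoplasmic reticulum by the INSIG proteins when sterols are plentiful.

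The promoters of 24 of the 31 listed genes, from 250 bases before to 50 bases after the start, were found among 33469 promoter windows of RefSeq (GRCr8). CCAAT, the box bound by NF-Y, which acts beside SREBP at sterol genes, stood on either strand in 15 of 18 sterol promoters and in 4 of 6 fatty acid promoters, against 37.5% of all windows. GGGCGG, the core of the GC box bound by Sp1, stood on either strand in 15 of 18 and 4 of 6, against 33.1% of all windows. TCACNCCAC, a strict form of the sterol response element, was in 0 of 18 and 0 of 6, against 1.12% of all windows. A direct repeat of AGNTCA spaced by 4 bases, of the kind that the PB-activated receptor CAR binds, was in 0 of 18 and 0 of 6, against 0.0568% of all windows. These are letter matches in short windows and not measured sites. Pmvk, Fdft1, Sqle, Stard4, Acaca, Fasn and Elovl6 had no entry. The stretches below hold CCAAT boxes of 5 sterol genes that were higher under PB at 10w. Acly and Fads1 of the fatty acid branch, which were not, stand beside them. Cyp51 also rose but held no CCAAT in its window. Among the boxes not printed are those of Fdps, Insig1, Srebf2, Sc5d, Insig2, Hsd17b7, Lss, Ebp and Nsdhl. These are sterol genes that were not called under PB at 10w. Whether the box goes with the rise was not tested. Mvd and Tm7sf2 each have another box, at the start or after it, that is not printed. Each is in GRCr8, printed 5′ to 3′ in the direction of the gene, with CCAAT or its reverse complement ATTGG in capitals:
Msmo1, chr16:29746925-29747064, + strand: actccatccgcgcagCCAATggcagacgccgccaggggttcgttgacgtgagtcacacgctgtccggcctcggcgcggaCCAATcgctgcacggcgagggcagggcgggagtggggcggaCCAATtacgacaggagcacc
Idi1, chr17:66547540-66547605, - strand: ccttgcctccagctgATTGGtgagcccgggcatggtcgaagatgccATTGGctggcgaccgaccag
Mvd, chr19:67414990-67415024, - strand: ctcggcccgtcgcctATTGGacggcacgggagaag
Mvk, chr12:47819504-47819691, - strand: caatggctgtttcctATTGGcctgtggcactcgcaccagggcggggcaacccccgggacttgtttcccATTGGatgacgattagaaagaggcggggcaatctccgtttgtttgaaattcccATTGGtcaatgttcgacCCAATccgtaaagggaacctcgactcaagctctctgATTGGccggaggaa
Tm7sf2, chr1:212789611-212789645, - strand: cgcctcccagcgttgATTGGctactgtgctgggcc
Acly, chr10:85963683-85963717, - strand: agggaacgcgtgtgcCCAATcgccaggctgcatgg
Fads1, chr1:216252556-216252590, + strand: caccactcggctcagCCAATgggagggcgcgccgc

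Signals are the authors' linear MAS5 intensities. Differences are between group means of log2(signal + 25) with their standard error, and a gene is called changed at a Benjamini-Hochberg adjusted p of 0.05 in limma over all genes tested. The arrays of every group fell into 2 sets on the leading axis of within-group variation, which held 11.8% of that variation, with 30 arrays in set 1, 32 in set 2, and 2 or 3 arrays of each group in each. The labels name no batch that matches the sets, but the sets follow the replicate number in the sample titles. In every group replicates 1 and 3 lay in set 1 and replicates 2 and 4 in set 2. Replicate 5 lay in set 1 in DEN3/PB and in set 2 in TAA/PB and MP/PB. Both arrays of each of the 31 animals lay in the same set. Hepatocyte markers were high on every array (albumin, Alb, at least 39383). Of the biliary markers, the bile duct keratin Krt7 was under 100 on all 62, while Epcam reached 100 on 62, Krt19 on 46 and Spp1 on 39. Among markers of other cells, Col3a1 was at least 4637 and Clec4f at least 2830, while Cd79b reached 100 on 1 array. Samples are pieces of whole liver, in which fewer cells of a type and less RNA per cell cannot be told apart.

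After 1 week of PB without an initiator, 3 enzymes of the late sterol pathway rose and no fatty acid gene was called. The 3 made up 3 of 21 sterol genes, where 0.839% of the 10491 genes were called higher and 0.419% lower. Sterol genes had a median difference of 0.27 (0.29 in set 1, 0.32 in set 2), against 0.00 for all genes, and 19 of 21 lay above 0. The 9 fatty acid genes had a median of -0.13 (0.04 and -0.06 in the sets). Sums of biliary marker signals were higher in MC/PB (1074 to 1539) than in MC/water (783 to 991), with Epcam, an epithelial adhesion molecule, higher by 0.80 ± 0.15 (limma adjusted p = 0.00326) as the 1 of 3 tested markers called. Epcam makes up most of that sum, and the other 2 tested markers, Krt19 at 0.16 ± 0.31 and Spp1 at -0.34 ± 0.32, were not called. Their part in these results was not tested.

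Msmo1, the methylsterol monooxygenase that removes methyl groups from the sterol ring, had the smallest p. Its signal was 4588, 2127, 4593 and 3174 in the 4 MC/water livers and 12186, 9724, 8863 and 5526 in the 4 MC/PB livers. Every PB liver was above every control, a 2.52-fold rise of 1.33 ± 0.25 (limma adjusted p = 0.00333, with n = 4 in each group). Fdft1, the squalene synthase that commits farnesyl diphosphate to sterols, rose by 0.48 ± 0.11 (n = 4 per group, limma adjusted p = 0.0165). Its controls were tightly grouped, at 2987 to 3475, and its PB livers stood at 3777 to 5359, with no overlap, as for 3.55% of all genes. Sqle, the squalene monooxygenase and a rate-limiting step of the pathway, rose by 1.02 ± 0.27 (n = 4 per group, limma adjusted p = 0.0488). Its signals were 490, 244, 483 and 423 in MC/water and 1118, 1024, 923 and 450 in MC/PB, so that the 4th PB liver lay within the controls. Without 5w MC/water replicate 2, or without 5w MC/PB replicate 1 or 2, the count of 3 fell to 1. With 1 array left out, Msmo1 stayed called in 8 of 8 fits, Fdft1 in 5 of 8 and Sqle in 1 of 8. Sqle also lost its call without the filter and when every probe set was tested.

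Upstream, none of the 6 measured mevalonate pathway genes was called at 5w, though all 6 differences were above 0. The isomerase Idi1, which interconverts the isoprenoid units, stood at 0.91 ± 0.26 (limma adjusted p = 0.0790). Tm7sf2, a sterol reductase, stood at 0.85 ± 0.25 without overlap between the groups (limma adjusted p = 0.0976). Nsdhl, the sterol dehydrogenase that works beside Msmo1, went the other way at -0.13 ± 0.10. Of the regulators, Srebf2 stood at 0.12 ± 0.14, Insig2 at 0.02 ± 0.11 and Insig1 at -0.29 ± 0.35, and the sterol carrier Stard4 at 0.26 ± 0.17. In the fatty acid branch the regulator Srebf1 was lower in all 4 PB livers, at 4159, 3508, 7189 and 5861, than in all 4 controls, at 13670, 7192, 9094 and 8393, a gene shown per array after its values were seen. Its difference of -0.90 ± 0.35 was not called (limma adjusted p = 0.276), and groups of 4 without overlap in this direction were seen for 2.91% of all genes.

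**Figure D1:**
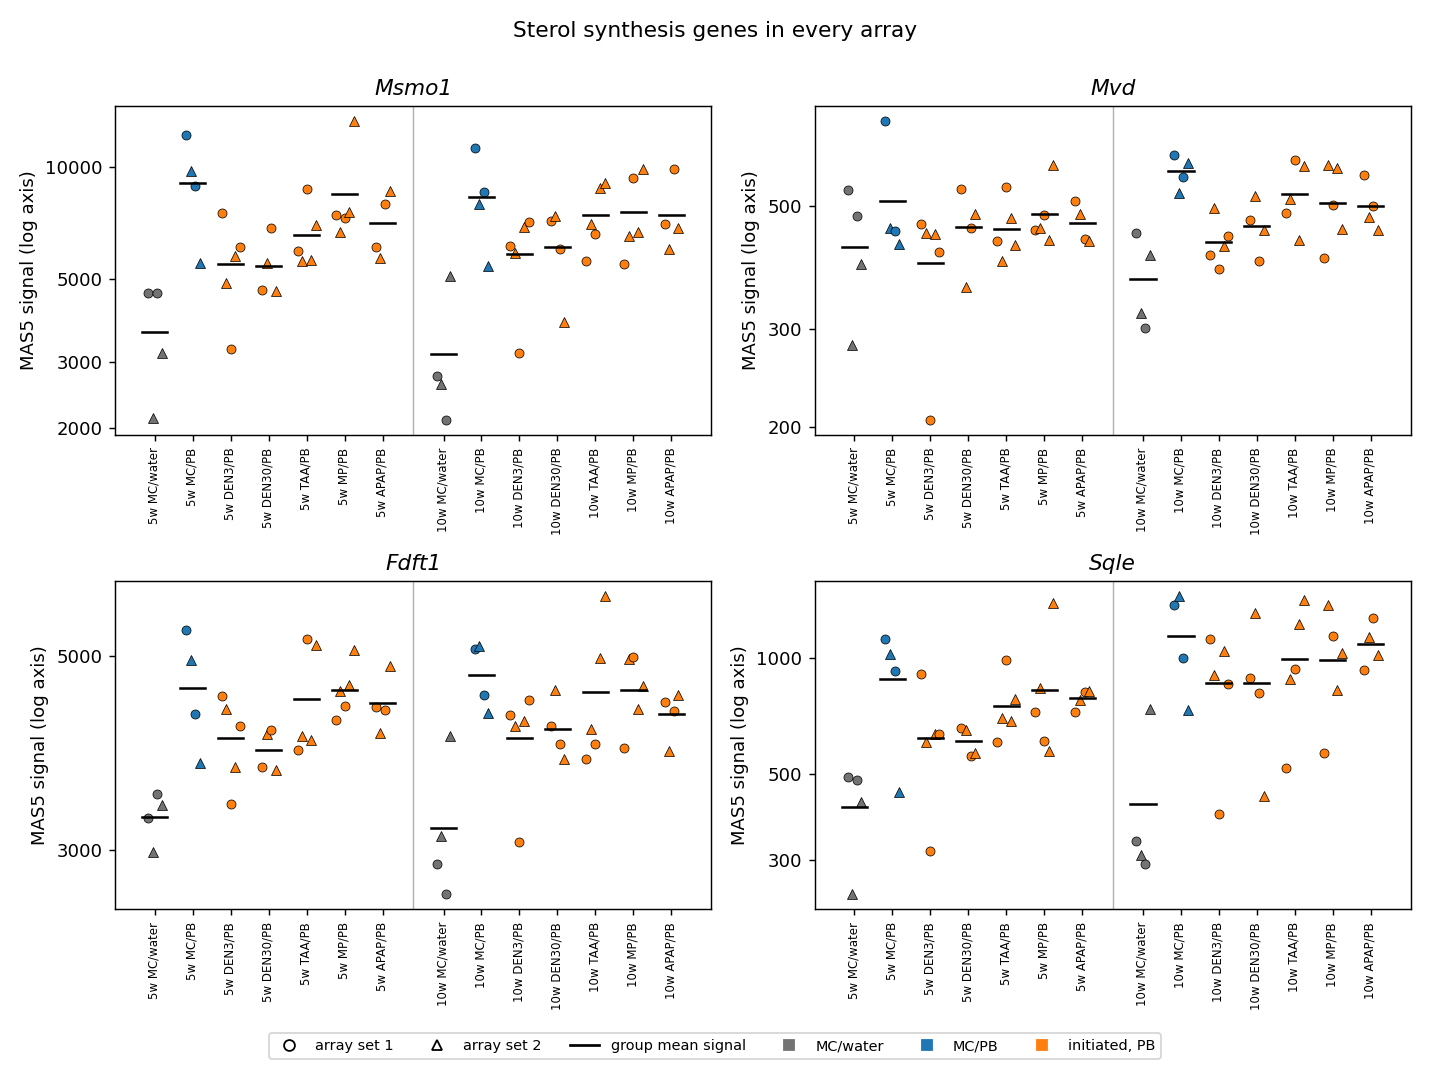
MAS5 signal (log axis) of 4 sterol synthesis genes on each of the 62 arrays, by group and week; circles are array set 1, triangles set 2, and lines are group mean signals. In Msmo1 the MC/PB livers lie above all MC/water livers at both weeks, and DEN3/PB animal 3 is the lowest of its group at both weeks, at 3262 and 3178.

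After 6 weeks of PB both mevalonate pathway genes and sterol ring genes were higher. Of 21 sterol genes 8 rose and none fell, where 1.59% of the 10546 genes were called higher and 0.664% lower. The sterol median was 0.59 (0.78 in set 1, 0.39 in set 2) against -0.01 for all genes, while the 9 fatty acid genes had a median of -0.38 (-0.47 and -0.09) and none was called. Biliary marker sums were 665 to 1153 in MC/water and 1343 to 2182 in MC/PB, and Epcam was higher by 1.26 ± 0.24 (limma adjusted p = 0.00247). The other 2 tested markers lay below 0 and were not called, Krt19 at -0.27 ± 0.24 and Spp1 at -0.31 ± 0.30. The part of these markers in the result was not tested.

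In the mevalonate pathway, 3 of 6 genes rose. Mvd, the decarboxylase that makes isopentenyl diphosphate, had signals of 447, 321, 301 and 408 in MC/water and of 618, 528, 565 and 598 in MC/PB. All 4 PB livers were above all controls, a rise of 0.63 ± 0.13 (n = 4 per group, limma adjusted p = 0.00557) that was alike in the sets, at 0.65 and 0.60. Idi1 rose by 1.22 ± 0.27 (limma adjusted p = 0.00927; 1.65 and 0.80 in the sets). The mevalonate kinase Mvk rose by 0.64 ± 0.16 without overlap (limma adjusted p = 0.0267; 0.36 and 0.92 in the sets). The next kinase, Pmvk, at 0.40 ± 0.19, the farnesyl diphosphate synthase Fdps, at 0.59 ± 0.17 (limma adjusted p = 0.0596), and the cytosolic thiolase Acat2, at 0.71 ± 0.28, were not called.

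Of the 11 genes from squalene to the finished ring, 5 rose. Msmo1 had signals of 2765, 2629, 2105 and 5110 in MC/water and of 11220, 7940, 8581 and 5427 in MC/PB. The highest control and the lowest PB liver were close, both being animal 4 of their group, yet the groups did not overlap, and the rise was 1.42 ± 0.27 (n = 4 per group, limma adjusted p = 0.00193). It was 2.01 in set 1 and 0.84 in set 2, which holds both of those arrays. Sqle rose by 1.44 ± 0.33, or 2.72-fold (limma adjusted p = 0.0146), with 1 control, at 737, just above the lowest PB liver, at 734. Cyp51, the lanosterol demethylase, rose by 0.90 ± 0.21 (limma adjusted p = 0.0139; 1.21 and 0.59 in the sets). Tm7sf2 rose by 0.88 ± 0.24 (limma adjusted p = 0.0429) and Fdft1 by 0.59 ± 0.13 (limma adjusted p = 0.00927; 0.78 and 0.40 in the sets), both without overlap, as for 5.05% of all genes. The cyclase Lss, which closes the sterol ring, did not overlap either, at 0.60 ± 0.31, but was not called (limma adjusted p = 0.401). The dehydrogenase Hsd17b7 at 0.59 ± 0.21, the reductase Dhcr7 at 0.60 ± 0.20, the isomerase Ebp at 0.27 ± 0.14 and the desaturase Sc5d at 0.26 ± 0.21 were not called, and Nsdhl stood at -0.03 ± 0.10.

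None of the 4 regulators and carriers was called. Srebf2 stood at 0.15 ± 0.16, Insig1 at 0.05 ± 0.33, Insig2 at -0.15 ± 0.16 and Stard4 at -0.24 ± 0.19, with adjusted p from 0.633 to 0.979 in limma. The count of 8 rested on few animals: it was 3 without 10w MC/water replicate 2 or 3 and 4 without 10w MC/PB replicate 1 or 2. Other probe sets of the same genes gave 1.11 for Idi1, 0.67 for Cyp51, 0.54 for Fdft1 and 0.36 for Mvk, of which only that of Fdft1 was called when every probe set was tested (limma adjusted p = 0.0355).

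Fatty acid genes at 10w were spread more widely between animals, and none passed. Scd, the stearoyl-CoA desaturase, had signals of 36684, 21397, 27668 and 27673 in MC/water and of 18781, 8694, 15085 and 17585 in MC/PB. The elongase Elovl5 had 22438, 21284, 18524 and 17798 in MC/water and 13394, 17719, 13380 and 17401 in MC/PB. In both genes, shown per array after their values were seen, all PB livers were below all controls, as were 4.04% of all genes, but the differences of -0.95 ± 0.60 and -0.38 ± 0.15 were not called (limma adjusted p = 0.524 and 0.242). The fatty acid synthase Fasn stood at -0.52 ± 0.30, the desaturase Fads2 at -0.46 ± 0.31 and Srebf1 at -0.63 ± 0.40. The citrate lyase Acly, at 0.06 ± 0.26, the acetyl-CoA carboxylase Acaca, at 0.02 ± 0.19, and the desaturase Fads1, at 0.16 ± 0.16, were near 0, and the elongase Elovl6 was at 0.72 ± 0.41.

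**Figure D2:**
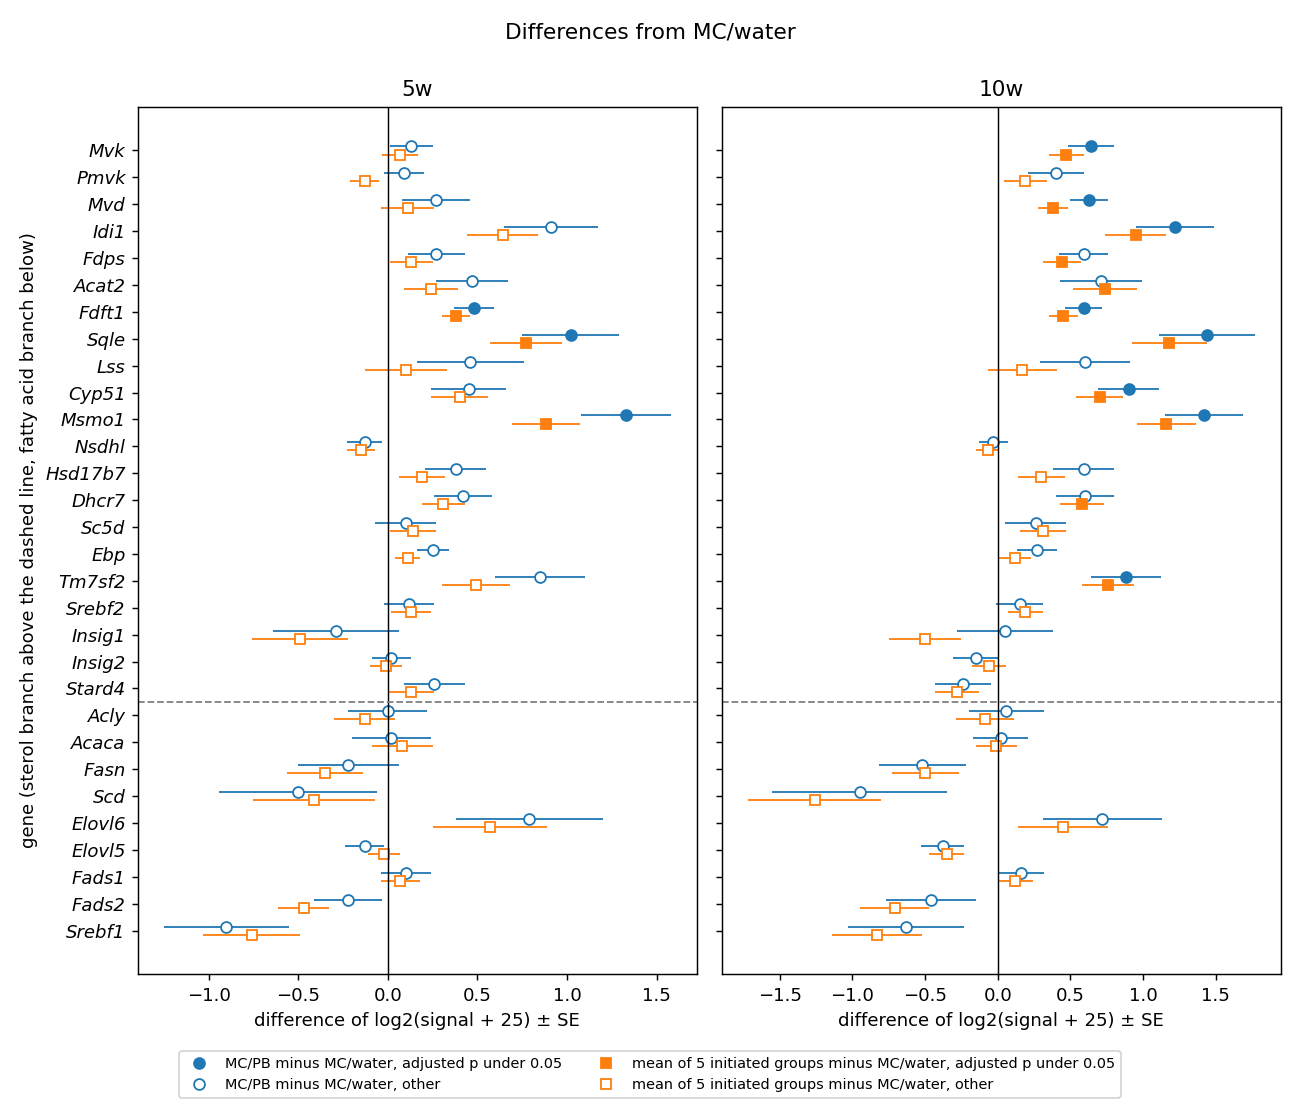
Difference from MC/water of the 30 measured genes at 5w (left) and 10w (right), in log2(signal + 25) with the standard error; circles are MC/PB and squares the mean of the 5 initiated groups, filled where the adjusted p is under 0.05. All filled symbols are sterol genes to the right of 0, and Scd, Fads2 and Srebf1 lie left of 0 in both comparisons at both weeks.

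The effect of PB was not shown to differ between the weeks for any member. In the interaction of PB and week 0 of 10910 genes were called (0%), with 492 at an unadjusted p under 0.05 in limma, 1 of them a member, Mvk, at 0.51 ± 0.20. With the animal as a random block 7 genes were called, none a member. The sterol median of the interaction was 0.18 (0.37 in set 1, -0.04 in set 2), and the 6 mevalonate genes lay between 0.24 and 0.51.

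The mean of the 5 initiated groups under PB was compared with the same MC/water livers, so this comparison and the last share their controls. At 5w the same 3 sterol genes were higher, and at 10w 11 were, among them all 8 that MC/PB had raised. At 5w 2.93% of genes were called higher and 1.52% lower, and at 10w 5.20% and 3.68%. The sterol medians were 0.13 (0.06 and 0.33 in the sets) and 0.38 (0.38 and 0.31), and the fatty acid medians -0.13 and -0.35, with no fatty acid gene called at either week. Biliary marker sums over the initiated livers were 1100 to 2129 at 5w and 1206 to 3035 at 10w, above the MC/water livers of the same week. Epcam, which makes up most of that sum, was higher by 0.95 ± 0.12 and 1.33 ± 0.18 (limma adjusted p = 2.03e-06 and 1.42e-05). It was the 1 of 3 tested biliary markers called at each week. At 5w 2 of 6 cell cycle markers were higher, Mki67 by 0.65 ± 0.18 and Pcna by 0.32 ± 0.07 (limma adjusted p = 0.0365 and 0.00720). The stellate and matrix marker Col3a1 was higher by 0.39 ± 0.12 and 0.30 ± 0.10 at the 2 weeks (limma adjusted p = 0.0452 and 0.0462), and the endothelial receptor gene Kdr was lower by 0.24 ± 0.07 at 10w (limma adjusted p = 0.0424). The hepatocyte enzyme Tat was lower by 0.74 ± 0.22 and 0.96 ± 0.19 at the 2 weeks (limma adjusted p = 0.0464 and 0.00134), as 1 of 7 hepatocyte markers tested. The part of these genes in the result was not tested. Without 10w MC/water replicate 3 the count of 11 fell to 6, and without 10w MC/water replicate 2 to 7.

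At 5w Fdft1 had the smallest p. It stood at 3259, 2987, 3475 and 3377 in MC/water, at 4508, 4346, 3384, 3731 and 4157 in DEN3/PB and at 3733, 4073, 4121 and 3700 in DEN30/PB. In TAA/PB it was 3905, 4054, 5229, 4009 and 5148, in MP/PB 4226, 4562, 4386, 4633 and 5085, and in APAP/PB 4369, 4081, 4341 and 4873. All initiated livers but DEN3/PB animal 3 exceeded all controls, and the mean difference was 0.38 ± 0.08 (n = 23 and 4, limma adjusted p = 0.00491). The other probe set of Fdft1 stood at 0.25 ± 0.09 and was not called when every probe set was tested (limma adjusted p = 0.145). Msmo1 was higher by 0.88 ± 0.19 and Sqle by 0.77 ± 0.20 (limma adjusted p = 0.00580 and 0.0235). Without DEN3/PB animal 3 the count was 5 in place of 3.

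At 10w Msmo1 had the smallest p, at 2765, 2629, 2105 and 5110 in MC/water. It was 6138, 5875, 3178, 6913 and 7114 in DEN3/PB and 7143, 7384, 6014 and 3843 in DEN30/PB. In TAA/PB it was 5597, 7023, 6626, 8771 and 9042, in MP/PB 5495, 6519, 9309, 6702 and 9885, and in APAP/PB 7019, 6038, 9888 and 6864. All livers after thioacetamide, methapyrilene and acetaminophen were above all controls, while each diethylnitrosamine group had 1 liver below the highest control, and the mean difference was 1.16 ± 0.20 (n = 23 and 4, limma adjusted p = 3.54e-04). Sqle was higher by 1.18 ± 0.26, Idi1 by 0.95 ± 0.21, Tm7sf2 by 0.76 ± 0.18, Cyp51 by 0.70 ± 0.16, Mvk by 0.47 ± 0.12, Fdft1 by 0.45 ± 0.10 and Mvd by 0.38 ± 0.10. The 3 further genes were Acat2 at 0.74 ± 0.22, Dhcr7 at 0.58 ± 0.15 and Fdps at 0.44 ± 0.13 (limma adjusted p from 0.0131 to 0.0307). When every probe set was tested, other probe sets of Idi1, Cyp51 and Fdft1, at 0.61, 0.45 and 0.24, were not called (limma adjusted p from 0.115 to 0.219). That of Mvk, at 0.45, was called (limma adjusted p = 0.0315).

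In the fatty acid branch 6 of 9 differences from MC/water lay below 0 at 5w and 7 of 9 at 10w, none of them called. At 5w Fads2 stood at -0.47 ± 0.14 and Srebf1 at -0.76 ± 0.27 (limma adjusted p = 0.0553 and 0.113). Both were called lower with array set as a block, at adjusted p = 0.0448 and 0.0138 in limma, where 2.27% of genes were called lower. At 10w Scd stood at -1.26 ± 0.46, Srebf1 at -0.83 ± 0.31, Fads2 at -0.71 ± 0.24 and Elovl5 at -0.35 ± 0.12, with adjusted p from 0.0576 to 0.0936 in limma. Fasn, at -0.50 ± 0.23, was the other of 5 fatty acid genes with an unadjusted p under 0.05 (limma adjusted p = 0.200). Nsdhl was an exception among sterol enzymes: its probe set stood at -0.15 ± 0.08 and -0.07 ± 0.08 at the 2 weeks, and its other probe set was lower by 0.34 ± 0.08 and 0.42 ± 0.11 when every probe set was tested (limma adjusted p = 0.0187 and 0.0176).

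**Figure D3:**
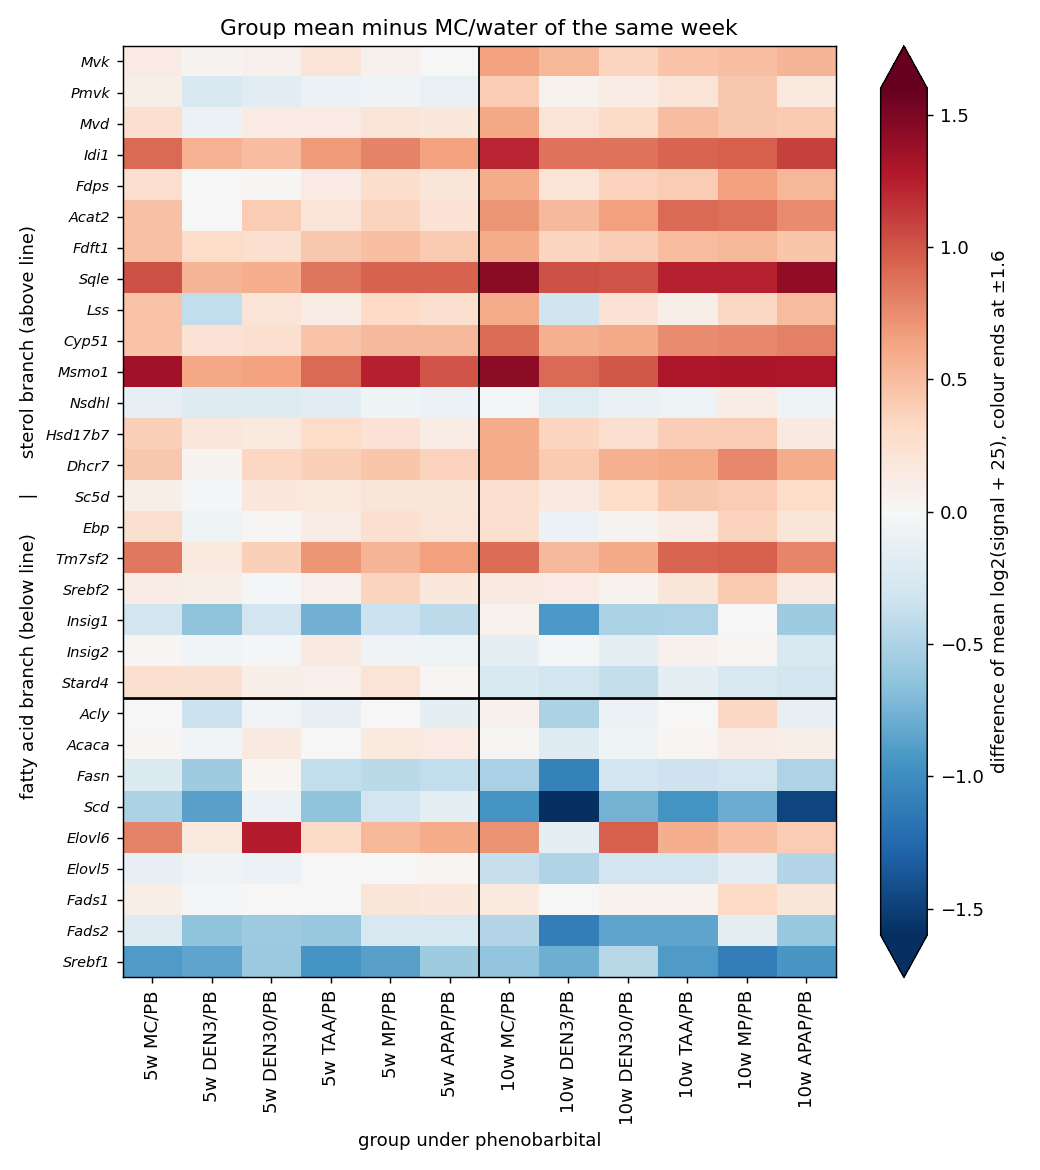
Mean log2(signal + 25) of each PB group less the mean of MC/water in the same week, for the 30 measured genes (rows, sterol branch above the line) and 12 PB groups (columns); red is higher, blue lower, and the colour ends at 1.6 in either direction. Idi1, Fdft1, Sqle, Cyp51, Msmo1, Hsd17b7, Dhcr7 and Tm7sf2 are red in all 12 groups, and Scd, Fads2 and Srebf1 are blue in all 12.

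By group means, all 6 PB groups lay above MC/water for 9 of 21 sterol genes at 5w and for 15 at 10w. All 6 lay below it for 2 sterol genes at 5w, Nsdhl and Insig1. At 10w they did so for 1, Stard4, which had all 6 above at 5w. MC/PB was the highest of the 7 groups for 10 sterol genes at each week. In the fatty acid branch all 6 PB groups lay below MC/water for 4 of 9 genes at 5w (Scd, Fads2, Srebf1 and Acly, the last at 0.00 in MC/PB) and for 5 at 10w (Fasn, Scd, Elovl5, Fads2, Srebf1). All 6 lay above it for 1 fatty acid gene at 5w, Elovl6, and for 0 at 10w. DEN3/PB was the lowest group for 6 of 9 fatty acid genes at 5w and for 8 of 9 at 10w. These orders rest on means whose neighbours mostly differ by less than their spread, and within a week all differences share the same control livers. The same orders were not counted over all genes, so the counts are a description without a background share.

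What each initiator added was read against MC/PB, which the 5 initiated groups share as a control. None of 300 tests of a member in these 10 comparisons was called; 24 had an unadjusted p under 0.05 in limma. Few genes of any kind were called: at 5w 0.0381% after DEN3, 0.114% after DEN30, 0.0191% after thioacetamide, 0.0572% after methapyrilene and 0% after acetaminophen, and at 10w 0.0190%, 0.0284%, 0.00948%, 0.0853% and 0.0664% in the same order. The mean of the initiated groups against MC/PB called no member at either week, where 0% and 0.00948% of genes were called, with 3 and 2 members at an unadjusted p under 0.05 in limma.

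After the low dose of diethylnitrosamine, sterol genes had a median of -0.32 at 5w and of -0.33 at 10w. All genes had 0.00 and 0.02. Below 0 lay 21 of 21 sterol genes at 5w and 20 of 21 at 10w. Of all genes, 5232 of 10491 and 4714 of 10546 lay below 0. Read against the same MC/PB livers, sterol genes below 0 numbered 19 and 20 of 21 after DEN30, and 17 and 19 after acetaminophen. They numbered 18 and 15 after thioacetamide, and 13 and 11 after methapyrilene. The lowest adjusted p was that of Ebp at 5w, whose 5 DEN3/PB signals, 4610, 4248, 3879, 4229 and 4659, were all under the 4 of MC/PB, 5452, 5646, 5386 and 5190. The difference of -0.33 ± 0.08 was not called (limma adjusted p = 0.170), and groups without overlap in this direction were seen for 0.877% of all genes. Pmvk was the other sterol gene without overlap at 5w, at -0.32 ± 0.10, and Pmvk and Mvd were at 10w, at -0.35 ± 0.18 and -0.40 ± 0.12.

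A single animal stood apart in the sterol branch. In DEN3/PB animal 3, 17 of 21 sterol genes at 5w and 20 of 21 at 10w were the lowest of the 5 livers. Its mean log2 level over the sterol genes was 10.87 and 10.88 at the 2 weeks, against 11.32 to 11.63 and 11.49 to 11.58 in the other 4, and lay under all MC/water livers, at 10.97 to 11.46 and 10.93 to 11.48. Its fatty acid genes did not stand low, with a mean of 12.58 at 5w, within 11.94 to 12.69 of the other 4, and of 12.06 at 10w, above their 11.56 to 11.94. Without this animal the DEN3 sterol medians were -0.12 at 5w and -0.17 at 10w, nearer to 0 than those of DEN30/PB, at -0.19 and -0.28, whereas with it they were farther. Within set 2, which does not hold it, they were -0.13 and -0.06.

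The fatty acid medians after DEN3 were -0.34 at 5w (-0.13 in set 1, -0.41 in set 2) and -0.55 at 10w (-0.59 and -0.27), with 9 of 9 genes below 0 at 10w. Without animal 3 they were -0.30 and -0.58. At 5w the median rested on other livers: it was -0.12 without DEN3/PB replicate 1, -0.19 without DEN3/PB replicate 4, and -0.22 and -0.15 without MC/PB replicate 1 and 4, while at 10w it stayed between -0.62 and -0.47 when any 1 array was left out. At 10w Acly (-0.58 ± 0.25), Fasn (-0.55 ± 0.29) and Fads2 (-0.64 ± 0.29) did not overlap with MC/PB, where 0.645% of all genes did so in this direction, and none was called (limma adjusted p = 1.00 for each). Fads2 had signals of 2225, 2839, 2264, 2926 and 1757 in DEN3/PB and of 4252, 4061, 2948 and 3692 in MC/PB, shown per array after they were seen. Scd had 1794, 6994, 12910, 7540 and 3906 in DEN3/PB against 8694 to 18781 in MC/PB, a difference of -1.40 ± 0.57 in which 1 liver overlapped. At the high dose of 30 mg/kg, DEN30/PB had fatty acid medians of 0.12 and 0.06. After thioacetamide, methapyrilene and acetaminophen the sterol medians lay between -0.14 and -0.01 and the fatty acid medians between -0.14 and 0.16. The doses and compounds were not tested against each other.

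**Figure D4:**
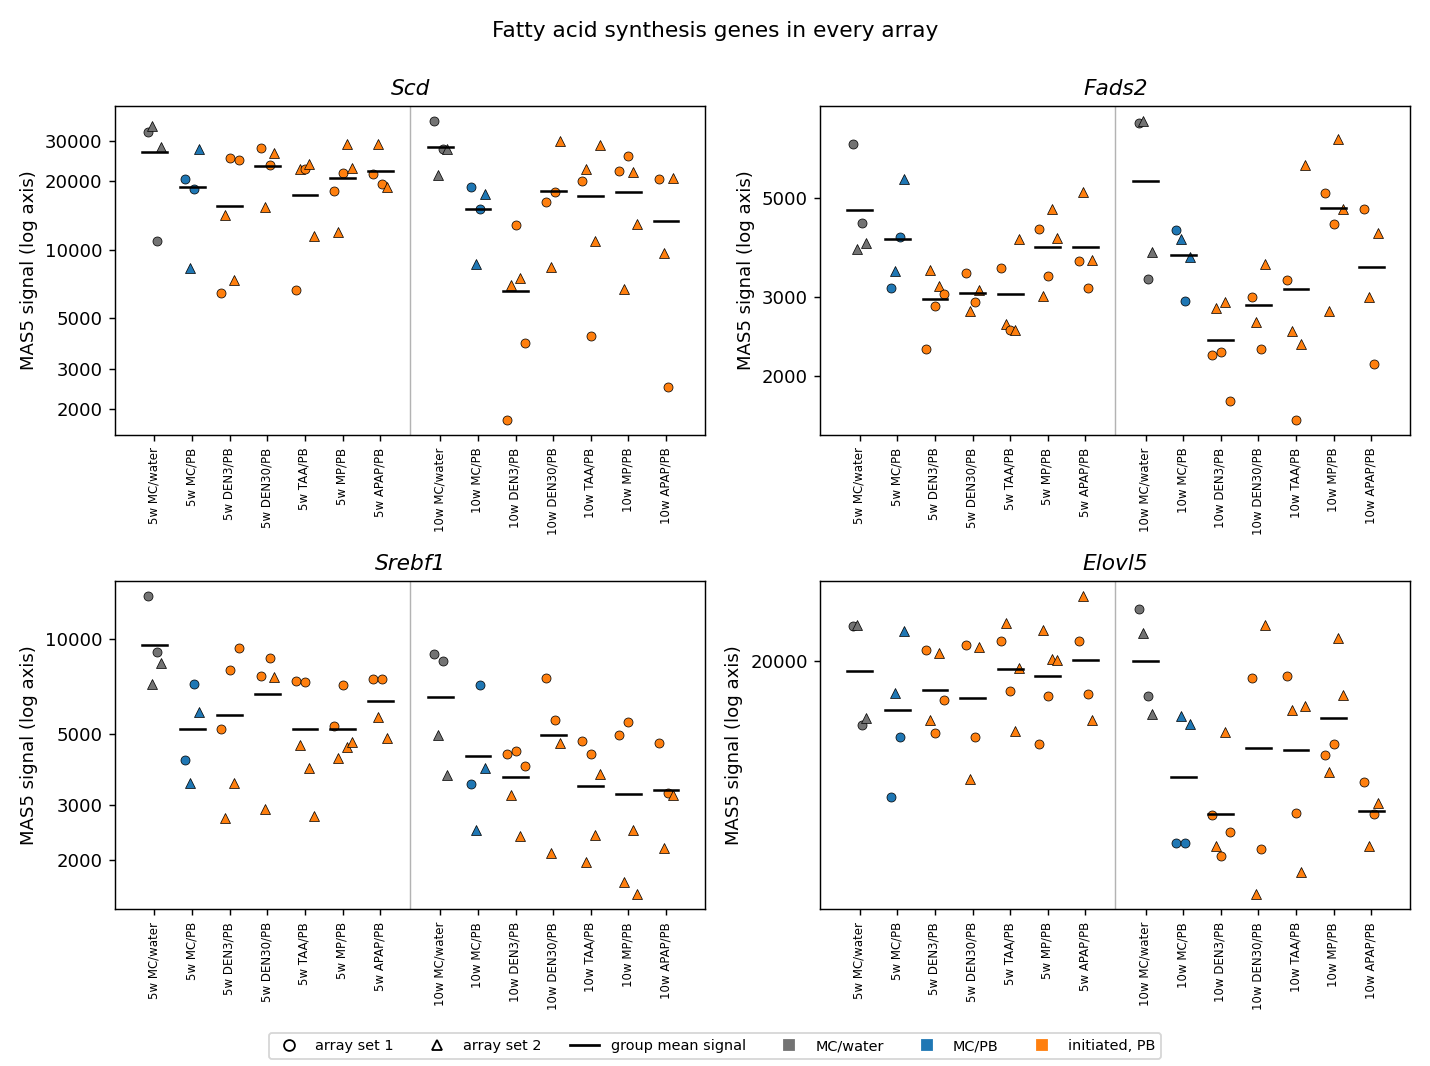
MAS5 signal (log axis) of 4 fatty acid synthesis genes on each of the 62 arrays, by group and week; symbols are as in the plot of sterol genes. Scd spans 1794 to 12910 in DEN3/PB at 10w, against 21397 to 36684 in MC/water, and the triangles of set 2 lie mostly below the circles of set 1 in Srebf1.

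Between the weeks, none of 210 tests of a member in the 7 treatments was called without a block; 18 had an unadjusted p under 0.05 in limma. In that fit, which ignores the pairing by animal, the share of all genes called was 0% in DEN30/PB and 0.0458% in MC/water. It was 1.31% in MC/PB, 1.34% in MP/PB, 1.47% in APAP/PB, 1.77% in TAA/PB and 2.89% in DEN3/PB. Since each animal gave both samples, the animal was also used as a random block (consensus correlation 0.316), and 4 fatty acid results were then called. Elovl5 fell by 0.40 ± 0.12 in DEN3/PB and by 0.47 ± 0.14 in APAP/PB, with adjusted p of 0.00439 and 0.00357 with the block and of 0.0661 and 0.0660 without it (limma). In APAP/PB it went from 20886, 23086, 18594 and 17551 at 5w to 15319, 13299, 14271 and 14633 at 10w, lower in all 4 animals and without overlap. With the block, 3.82% of genes were called lower in DEN3/PB and 2.84% in APAP/PB. In DEN30/PB 78 of 10910 genes were called higher with it and 81 lower, and in MC/water 85 and 70. Scd in DEN3/PB, at -1.29 ± 0.49, and Srebf1 in APAP/PB, at -0.95 ± 0.39, had adjusted p of 0.0384 and 0.0457 with the block and of 0.158 and 0.253 without it (limma). Elovl5 stood below 0 in the other 4 PB treatments as well, at -0.21 in MC/PB, -0.19 in DEN30/PB, -0.27 in TAA/PB and -0.14 in MP/PB, and at 0.03 in MC/water, with adjusted p from 0.0840 to 0.950 with the block (limma). Over the same weeks the endothelial markers Kdr and Lyve1 fell by 0.43 ± 0.08 and 0.38 ± 0.11 in DEN3/PB, and Kdr by 0.36 ± 0.09 in APAP/PB (limma adjusted p = 0.00134, 0.0361 and 0.0323). The sum of 4 endothelial markers was 8797 to 11183 at 5w and 6719 to 8914 at 10w in DEN3/PB. It was 9170 to 9570 and 6636 to 7817 in APAP/PB, and 9898 to 10364 and 7489 to 8871 in MC/water. Their part in these results was not tested. No sterol gene was called between the weeks either way, and the sterol medians lay between -0.12 and 0.13 over the 7 treatments. The differences in time between treatments were not tested, apart from that of MC/PB against MC/water.

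Within groups, genes of a branch varied together more than genes of different branches did. Over the 62 arrays, with group means removed, 210 pairs of sterol genes had a median correlation of 0.37, 36 pairs of fatty acid genes of 0.41 and 189 pairs across the branches of -0.02, against 0.00 for all genes. The arrays come in pairs from 31 animals and share the array sets, so this is a description. Fdps had the highest median with the other sterol genes, 0.59, followed by Sqle, 0.57, and Msmo1, 0.51, whereas Insig1, 0.12, and Insig2, 0.07, varied little with them. In the fatty acid branch Fasn was highest, at 0.60. Fads1 varied more with the sterol genes (0.28) than with its own branch (-0.02), and Nsdhl more with the fatty acid genes (0.40) than with the sterol genes (0.24). The spread within groups was widest for Scd (SD 0.82 in log2, above 99.3% of genes), Elovl6 (0.64), Srebf1 (0.58) and Insig1 (0.52), and low for Nsdhl (0.14), Fdft1 and Ebp (both 0.17).

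Differences between animals of a group carried over from 5w to 10w for some of the genes. Each animal's deviation from its group mean at 5w was correlated with that at 10w over 31 animals, with 100000 permutations of animals within treatment and adjustment over 10910 genes. Of the 30 genes, 11 were called with r above 0, or 36.7%, against 28.0% of all genes, so the share is near the background. The median r was 0.44 for sterol genes, 0.33 for fatty acid genes and 0.31 for all genes. Fads1 had the highest, at r = 0.80 and rho = 0.80 (permutation p = 3.00e-05 and 2.00e-05, adjusted p = 4.79e-04 for r), and r = 0.76 without the 2 farthest animals. In MC/PB it stood at 15026, 21165, 14030 and 15526 at 5w and at 17095, 20991, 13647 and 14867 at 10w, so that animal 2 was highest and animal 3 lowest both times. Lss followed with r = 0.76 and rho = 0.72 (permutation p = 9.00e-05 and 3.90e-04, adjusted p = 0.00111 for r), r = 0.67 without the 2 farthest animals, and 0.81 and 0.77 within the sets.

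The others called were Elovl5 (r = 0.71), Sc5d and Tm7sf2 (both 0.68), Srebf1 (0.66), Dhcr7 and Srebf2 (both 0.64), Cyp51 (0.56), Pmvk (0.54) and Sqle (0.52), with permutation p adjusted to 0.0384 or less. Because the array sets coincide with animals, the correlation was also computed with the set means removed. Then 5 genes were called, Lss, Sc5d, Tm7sf2, Srebf2 and Fads1, where 7.00% of all genes were. Srebf1 dropped from 0.66 to 0.19 (permutation p = 1.50e-04 and 0.601), and its level was 0.79 lower in set 2 than in set 1, a gap larger than that of 99.3% of genes in size. Without the 5 DEN3/PB animals the count of 11 was 6. By contrast Insig1 (r = 0.04), Stard4 (0.08), Acly (0.09) and Fasn (-0.08) were not called.

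**Figure D5:**
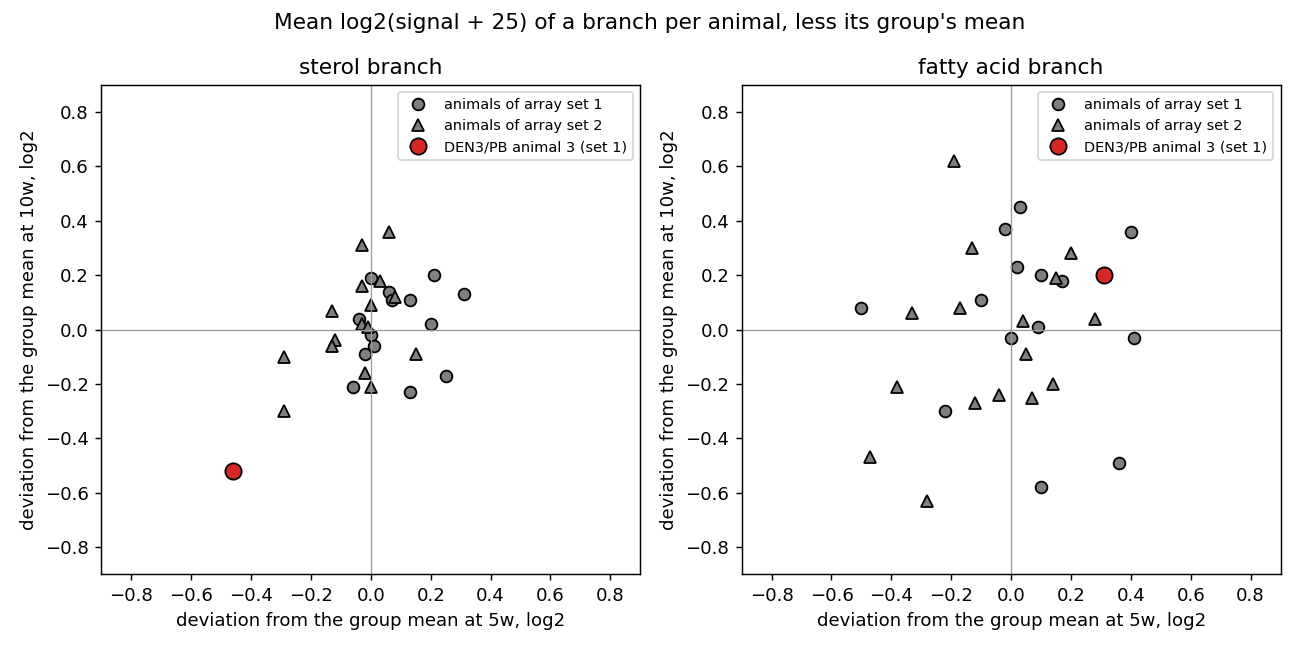
Mean log2(signal + 25) of the 21 sterol genes (left) and the 9 fatty acid genes (right) in each of the 31 animals, less the mean of its group, at 5w (horizontal) and 10w (vertical); circles and triangles are array sets 1 and 2. DEN3/PB animal 3, in red, is the lowest of all at both weeks in the sterol branch, at -0.46 and -0.52, and lies at 0.31 and 0.20 in the fatty acid branch.

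Other genes of these pathways were taken from 2 lists. Of the list of SREBP processing and sterol traffic, 16 of 22 genes were tested at 5w and 17 at 10w, and none was called under PB at either week (medians -0.08 and -0.20). In the initiated mean at 5w, 2 were lower: Abcg5, part of a sterol exporter into bile, by 1.27 ± 0.30, and Scap, which escorts SREBP, by 0.26 ± 0.07 (limma adjusted p = 0.0109 and 0.0353); at 10w none was called. Of the list of lipogenic supply and glyceride synthesis, 24 of 27 were tested. Under PB at 10w 1 was higher, Me1, the malic enzyme that supplies NADPH, by 1.28 ± 0.31, and 1 lower, Plin2, a lipid droplet coat protein, by 0.71 ± 0.15 (limma adjusted p = 0.0231 and 0.00499). In the initiated mean at 10w 3 were higher and 2 lower. With the smallest p were Plin2, lower by 0.59 ± 0.11, the transketolase Tkt, higher by 0.81 ± 0.16, and Me1, higher by 1.24 ± 0.24 (limma adjusted p from 7.75e-04 to 9.49e-04).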

How the data were processed

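Livers of 31 rats were measured at 2 times on 62 Affymetrix arrays. The deposited values are linear signal intensities, which the authors made with the algorithm MAS5 5.0, as named per the submitters' processing notes. Neither scaling target nor array model is given in the sources used here. The trimmed mean of every array lay between 500.23 and 500.27, 49.9% to 54.8% of its probe sets reached 100, and no 2 arrays were identical. Of 31099 probe sets, 57 were controls, 20826 had 1 gene symbol in the platform annotation, 436 several and 9780 none.

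A gene was read from its brightest probe set by mean, and genes with a signal of at least 100 on at least 4 arrays were tested. Group means of log2(signal + 25) were compared with limma 3.58.1 in R 4.3.3 (lmFit, contrasts, eBayes with trend), two-sided, with Benjamini-Hochberg adjustment over all genes tested at 0.05. All 7 groups of a week, or all 14 groups between weeks, shared 1 fit. The p-values measure the spread between animals, and 4 or 5 arrays a group limit the precision. The fit was tested on simulated data, and it recovered 83 of 100 genes changed 2-fold and 97 of 100 changed 4-fold in PB at 5w. There 10 of 190 calls were false. Of 100 genes changed 2-fold it recovered 78 in PB at 10w, 84 between the weeks in MC/PB and 62 in the interaction of PB and week. The simulated arrays varied independently, without shared animals or array sets, and changes smaller than 2-fold were not simulated.

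The labels say that the 2 samples of a number are the same animal. Their deviations from group means correlated at r = 0.210 to 0.392 in the 31 animals, and all 62 arrays correlated best with their own number. Array sets were read from the data and used as a block and within each set. Other alternatives were the offset, the filter, quantile normalization, the second or every probe set, the replicate number as a block, only the compared groups, and each array left out. Members and lists were chosen with earlier results of these data known. All 30 measured genes are named; every called one has its difference, and values on every array are given for the called gene with the smallest p of each role under PB or of each other comparison, and for others as stated or as chosen after their values were seen.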

Additional observations from a re-analysis of the deposited data

Results flagged for a closer look

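Within groups of 4 or 5 livers, 26 of 420 sets of member values had 1 liver far from the rest by Dixon's test, in 18 genes and on 14 arrays; chance gives about 1 in 20. DEN3/PB animal 3 was the liver in 10 of them and was always the lowest. At 5w it had 206 for Mvd, 932 for Hsd17b7, 2752 for Dhcr7 and 3988 for Sc5d. At 10w it had 7211 for Fdps, 3064 for Fdft1, 394 for Sqle, 3178 for Msmo1, 760 for Hsd17b7 and 3583 for Sc5d.

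Among the controls, MC/PB animal 1 at 5w had 711 for Mvd and 1416 for Srebf2. MC/PB animal 4 at 10w had 8981 for Cyp51 and 4297 for Ebp, and MC/water animal 4 at 10w had 737 for Sqle and 11590 for Insig2. In MP/PB, animal 2 was low for the cyclase Lss at both weeks, at 659 and 607. Animal 5 stood at 13243 for Msmo1 at 5w, and animal 3 at 17992 for Cyp51 at 10w. In DEN30/PB, animal 2 had 344 for Elovl6 and 2897 for Srebf1 at 5w and 7383 for Acly at 10w. In TAA/PB, animal 3 had 2884 for Acaca at 5w and animal 1 had 944 for Stard4 at 10w. In APAP/PB, animal 2 had 5438 for Dhcr7 at 10w.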

How the results depend on the processing

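Counts of called members depended on the settings in the comparisons with MC/water. For PB at 5w the 3 members became 5 at an adjusted p of 0.10, 1 with the second probe set, and 0 within array set 1, within set 2 or with only the compared groups. For PB at 10w the 8 became 4 with the second probe set, 2 within set 1 and 0 within set 2. For the initiated mean against MC/water at 5w the 3 became 5 at an adjusted p of 0.10, 5 with the replicate block (3 higher; Fads2 and Srebf1 lower), 7 with array set as a block, and 1 within each set, where set 1 turned the direction (Fads2, lower). For the initiated mean at 10w the 11 became 3 within set 1 and 1 within set 2. Between weeks the 0 became 1 in MC/PB with only the compared groups, 1 in MP/PB with the set block, and 1 in DEN3/PB at an adjusted p of 0.10, with the set block or with only the compared groups. In APAP/PB it became 1 at an adjusted p of 0.10 and 2 with the set block. With the animal as a random replicate block it became 2 in DEN3/PB and 2 in APAP/PB. Persistence went from 11 to 5 with the set removed. The cause of these changes was not tested, and a fit within a set also has fewer arrays. The replicate block changed no other call. Leaving out 1 array gave 1 to 4 for PB at 5w, 3 to 8 for PB at 10w, 2 to 5 and 6 to 13 for the initiated mean at 5w and 10w, and 0 to 1 for time in DEN3/PB (1 without 10w DEN3/PB replicate 4). Without 5w MC/water replicate 2 the initiated mean at 5w had 2, of which 1 was lower. Leaving out a treatment gave 6 to 11 for persistence. In all, 242 counts stayed on their side and within 1.5 times, 13 were stronger, 11 weaker and 1 reversed. Most of these counts are of comparisons in which 0 members were called, and 0 that stayed 0 was taken as unchanged. The total therefore says little about the comparisons with called members, whose changes are given above. Signals of 4 or 5 arrays a group limit what smaller differences can be seen.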
